A study of Mus musculus with 4 samples.

Results

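The miRNAs described here are the mature products of 10 hairpins, miR-470, miR-741, miR-743a, miR-743b, miR-871, miR-878, miR-880, miR-881, miR-883a and miR-883b, which lie close together on the mouse X chromosome. The rows were selected on hairpin name and mm10 position, and the group itself was chosen with measured values of these 4 libraries known. Which values is not recorded, so both the counts and the damaged-to-WT differences are treated as used. Levels and differences are therefore given as a description. Calls of the members from the fit over all rows are only counted, beside the share called among all rows, and support nothing. They fill 20 rows of 2110 in the deposited count table, 1 for the 5p arm and 1 for the 3p arm of each hairpin, with no further copies. The libraries are small RNA from extracellular vesicles, membrane particles that cells release, of C2C12, an established mouse myoblast line labelled WT in genotype. The WT group holds 2 libraries, with WT also as the treatment label, and the damaged group holds 2 libraries from cells treated with hydrogen peroxide. Peroxide dose and exposure time were not given in the sources used here. Culture was in DMEM with 10% FBS and 1x pen/strep for both groups, and vesicles were collected by differential centrifugation. No label ties a replicate to its own culture, so p-values measure only the spread between these libraries, which may be technical. The series asked how vesicle miRNAs differ between healthy and damaged muscle cells.

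A miRNA hairpin is cut into a duplex of 2 strands, of which 1 or both can be loaded into an Argonaute protein; the strand from the left side of the hairpin is the 5p arm and the other the 3p arm. Bases 2 to 8 of the loaded strand, the seed, choose most of the messenger RNAs it represses. The hairpins described here belong to the miR-506 family, a fast-evolving X-linked group that lies upstream of Fmr1, the gene for an RNA-binding protein of neurons and germ cells. In mice the family is known for its expression in testis, in germ cells and Sertoli cells, and its loss has been tied to poorer sperm performance. miR-470 is also known from embryonic stem cells, where it represses pluripotency factors.

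All 10 hairpins lie on the minus strand between 66776757 and 66814025 of chromosome X, a stretch of 37.3 kb. Each of the 20 rows lies between annotated genes, miRNAs aside, and the bases between hairpins were not searched for genes. The nearest genes wholly outside the stretch that are not miRNAs are the processed pseudogenes Gm8310, ending at 66764574, and Gm6783, starting at 66969223. Fmr1 starts 1865 kb beyond the cluster, at 68678541. Neighbouring member hairpins are 358 to 9056 bases apart. No row of the cluster shares bases with another entry on either strand, so unstranded counting does not mix them with an opposite-strand miRNA.

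The sequences below, from RefSeq (GRCm38.p6), are those the results turn on: the most abundant strands, both arms of the hairpins whose arm balance differed most between groups, and the closest pairs. Capitals mark the seed. All 20 rows matched a RefSeq mature sequence by position.
miR-470-5p: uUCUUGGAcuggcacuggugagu
miR-741-3p: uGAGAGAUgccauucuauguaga
miR-871-5p: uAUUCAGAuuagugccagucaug
miR-743a-5p: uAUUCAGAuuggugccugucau
miR-871-3p: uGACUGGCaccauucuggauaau
miR-881-5p: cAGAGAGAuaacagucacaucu
miR-881-3p: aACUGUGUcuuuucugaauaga
miR-883a-3p: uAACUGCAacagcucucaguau
miR-883b-3p: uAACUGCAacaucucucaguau

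Their places are chrX:66813995-66814017 for miR-470-5p, chrX:66796809-66796831 for miR-741-3p, chrX:66810472-66810494 for miR-871-5p and chrX:66776794-66776815 for miR-743a-5p. The others are chrX:66810438-66810460 for miR-871-3p, chrX:66801986-66802007 for miR-881-5p, chrX:66801954-66801975 for miR-881-3p, chrX:66780768-66780789 for miR-883a-3p and chrX:66789900-66789921 for miR-883b-3p. miR-871-5p and miR-743a-5p share the seed AUUCAGA and are identical at 20 of the 22 positions compared, with the substitutions G11A and U17A from miR-743a-5p to miR-871-5p, counted from the 5′ end. miR-883a-3p and miR-883b-3p share the seed AACUGCA and differ by G12U alone, so reads of these 2 rows may be counted for the wrong one. miR-743a-3p and miR-743b-3p share the seed AAAGACA and are identical at 19 of 22 positions. These 3 seeds occur in no other named row with a RefSeq sequence. No such row outside the cluster came within 2 substitutions of a member, compared from the 5′ end without gaps. Rows without a RefSeq sequence were not compared. The members had 31.8% to 54.5% G and C bases with a median of 40.9%, against a median of 52.2% over the 1734 rows of the table with a sequence.

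Library totals ran from 4577668 to 7638663 counts, spread over 692 to 746 rows above 0. Levels are given as CPM, the counts of a row scaled to a common library size with TMM factors, and a row was called where edgeR's quasi-likelihood test over all tested rows gave an adjusted p under 0.05, as it did for 9.51% of them (30.8% at an unadjusted p under 0.05, and 20.3% called by DESeq2 and 14.7% by limma-voom). The muscle label was checked against the muscle list, whose rows summed to 300202 to 336600 CPM in WT and 359484 to 374071 CPM in damaged, most of it the myogenic miR-206-3p. Of its 11 tested rows 3 were called, with 7 at an unadjusted p under 0.05, 5 called by DESeq2 and 5 by limma-voom. The blood and liver list held 1505 to 1714 and 1406 to 1521 CPM with 0 of 5 called (2 at an unadjusted p under 0.05, and 0 by DESeq2 and by limma-voom), and the neural list 573 to 669 and 911 to 1190 CPM with 1 of 2 called (2 unadjusted, 2 by DESeq2 and 1 by limma-voom). Most of the blood and liver sum was miR-451a-5p, at 1684 and 1490 CPM in WT and 1501 and 1386 CPM in damaged. The neural row called was miR-128-3p (copy 1), at 308 and 353 CPM in WT and 523 and 673 CPM in damaged. The rows of miR-122, miR-486, miR-9 and miR-219a were at 0 in all 4 libraries, and all of them share bases with an entry on the opposite strand. In all, 14 of 17 neural rows were at 0, of which 10 share such bases, and the other 4 are rows of miR-124a. Entries thought to derive from other RNA classes summed to 1830 to 2801 CPM in WT and 6416 to 6735 CPM in damaged, of which 10 were tested, 3 called higher and 1 called lower (9 unadjusted, 8 by DESeq2 and 7 by limma-voom).

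Vesicles of both groups carried the cluster at a low and nearly equal level. It held 9550 counts in WT replicate 1, which is 0.209% of the library (exact Clopper-Pearson 95% interval 0.204 to 0.213), and 14900 counts in WT replicate 2, which is 0.195% (0.192 to 0.198). Damaged replicate 1 held 14230 counts, 0.206% (0.203 to 0.210), and damaged replicate 2 held 15921, 0.217% (0.213 to 0.220). The intervals cover counting error only, as they do throughout. The group ranges overlap. In scaled units the WT total was 2036 ± 112 CPM and the damaged total 2097 ± 29.4 CPM (SD, n = 2), a ratio of damaged to WT of 1.03, which was 0.988 with upper quartile scaling. Shares and CPM are relative to each library's counts, so they do not give the absolute amount carried. In such bulk vesicle RNA, the number of vesicles that carry these miRNAs and the amount per vesicle cannot be told apart.

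These hairpins are described as testis-type, but no testis sample is among the libraries to compare them with. Of the 20 rows, 19 had counts in every library, and only miR-880-5p was at 0 in all 4, which allows up to 3 counts a library or 0.394 to 0.664 CPM. In at least 1 library, counts were found for 19 of the 20 cluster rows and for 1001 of all 2110 rows. In the germline and testis-linked list from other chromosomes, 10 of 26 rows had such a count. That share is somewhat lower than the share over all rows, and nothing is read from it. Of the 16 rows of that list at 0, 5 share bases with an opposite-strand entry.

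A pair of 5p strands made up most of the cluster. miR-470-5p had 3149 and 5162 counts in WT replicates 1 and 2 and 5689 and 5971 in damaged replicates 1 and 2, and took 33.0% to 40.0% of the cluster's counts. In scaled units it stood at 697 and 678 CPM in WT and at 830 and 794 CPM in damaged. Both damaged libraries lay above both WT libraries, by a small margin. The means were 688 ± 13.8 CPM for WT and 812 ± 25.3 CPM for damaged (SD, n = 2), with a log2 fold change of 0.24 ± 0.12 (SE). By mean CPM it ranked 74 of all 2110 rows.

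miR-871-5p, the next in level, had 2926 and 4501 counts in WT and 3829 and 4997 in damaged. Its scaled values of 648, 591, 559 and 665 CPM, in the same order, overlap between groups (log2 fold change -0.02 ± 0.15, SE). Together with miR-743a-5p, whose seed it shares, it brought the seed AUUCAGA to a WT mean of 646 ± 42.8 CPM and a damaged mean of 639 ± 71.3 CPM (SD, n = 2). Only a small part of that came from miR-743a-5p, at 26.8 ± 2.56 and 27.5 ± 3.66 CPM.

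miR-741-3p was the third most abundant strand and the highest 3p strand. It had 1430 and 1958 counts in WT and 1441 and 1575 in damaged, or 317, 257, 210 and 209 CPM in that order. Both damaged libraries lay below both WT libraries (287 ± 42.1 against 210 ± 0.524 CPM, SD, n = 2; log2 fold change -0.45 ± 0.17, SE). These 3 strands held 77.0% to 78.8% of the cluster's counts in every library.

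**Figure D1:**
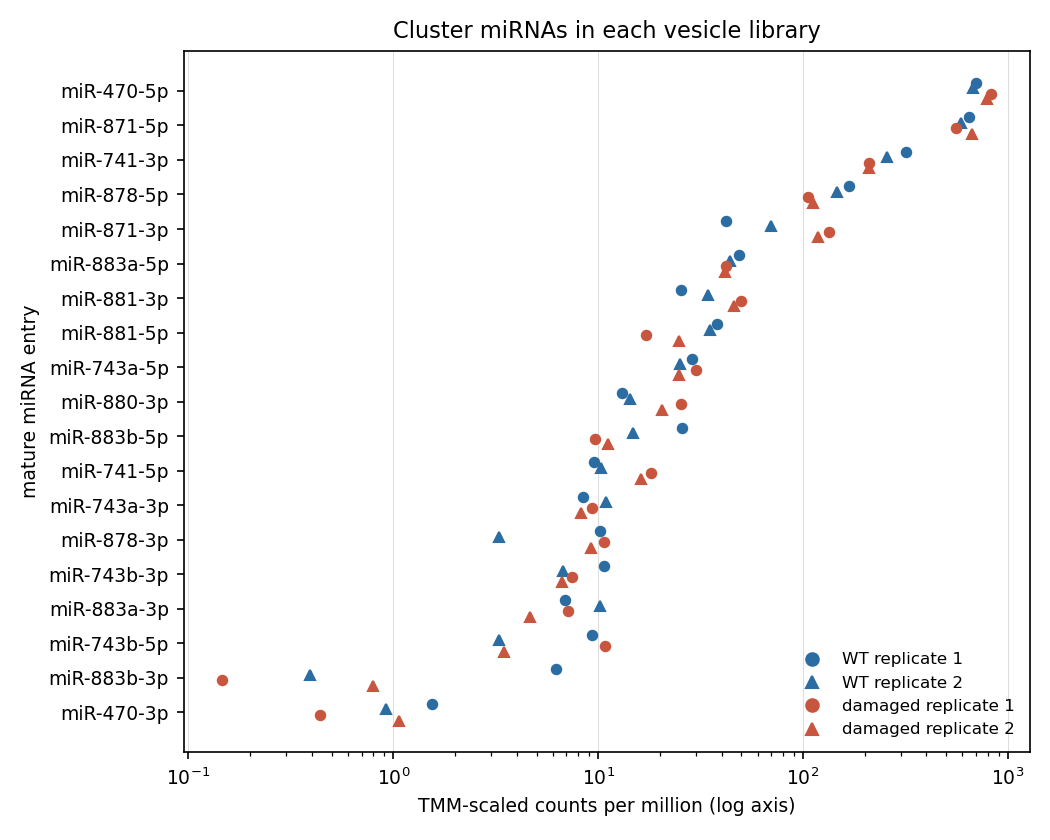
TMM-scaled CPM of each cluster row (log axis) in the 4 libraries, WT in blue and damaged in red, circles for replicate 1 and triangles for replicate 2; miR-880-5p, at 0 throughout, is not drawn. The 19 rows span from miR-470-5p at 678 to 830 CPM down to miR-470-3p at 0.438 to 1.55 CPM and miR-883b-3p at 0.146 to 6.20 CPM, and miR-883b-3p in WT replicate 1 stands apart from the other libraries.

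Below them the order of mean levels was miR-878-5p at 133 CPM, miR-871-3p at 91.0, miR-883a-5p at 44.1, miR-881-3p at 39.0, miR-881-5p at 28.8 and miR-743a-5p at 27.1 CPM. The remaining 10 rows with counts followed, from miR-880-3p at 18.3 CPM to miR-470-3p at 0.993 CPM. Dividing by the length of the entry, 21 to 23 bases, left the order as it was. The ranges of the first 4 strands over the 4 libraries did not overlap one another, though those of miR-470-5p and miR-871-5p nearly met at 678 and 665 CPM, and that of miR-878-5p overlapped miR-871-3p. From there on each row overlapped the next in its range, down to miR-470-3p.

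The counts behind these rows are given in the order WT replicates 1 and 2, damaged replicates 1 and 2. Those of miR-878-5p were 761, 1115, 724 and 841. Those of miR-883a-5p were 220, 335, 288 and 313, and of miR-743a-5p 129, 190, 206 and 187. These are 5p strands of hairpins whose 5p arm led in all 4 libraries.

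Rows with fewer counts came next. Those of miR-883b-5p were 116, 113, 66 and 84, of miR-743a-3p 38, 83, 64 and 62, and of miR-878-3p 46, 25, 73 and 69. Those of miR-743b-3p were 48, 51, 51 and 50, of miR-743b-5p 42, 25, 74 and 26, and of miR-883a-3p 31, 78, 49 and 35. Rows with so few counts carry the widest SE of the cluster, up to 0.80 on the log2 scale for miR-743b-5p.

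At the end of the order, miR-470-3p had 7, 7, 3 and 8 counts. miR-883b-3p had 28, 3, 1 and 6, so its level rests on WT replicate 1.

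Level did not follow position in a simple way along the 37.3 kb, but the 2 hairpins at the miR-470 end were the highest. Summed over both arms, miR-470 stood at 751 CPM and miR-871, 3.52 kb further along the minus strand, at 707 CPM as means over 4 libraries. miR-881 and miR-878, 12.0 and 12.4 kb from the miR-470 end, stood at 67.8 and 141 CPM, although their hairpins are the closest neighbours of the cluster. miR-880 at 13.4 kb stood at 18.3 CPM and miR-741 at 17.1 kb at 262 CPM, and miR-883b, miR-883a, miR-743b and miR-743a, from 24.1 to 37.2 kb, at 14.6 to 51.3 CPM. Hairpins of the same family outside the 10, miR-463, miR-471 and miR-742, are interleaved with them, with totals of 148, 404 and 4.48 CPM.

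**Figure D2:**
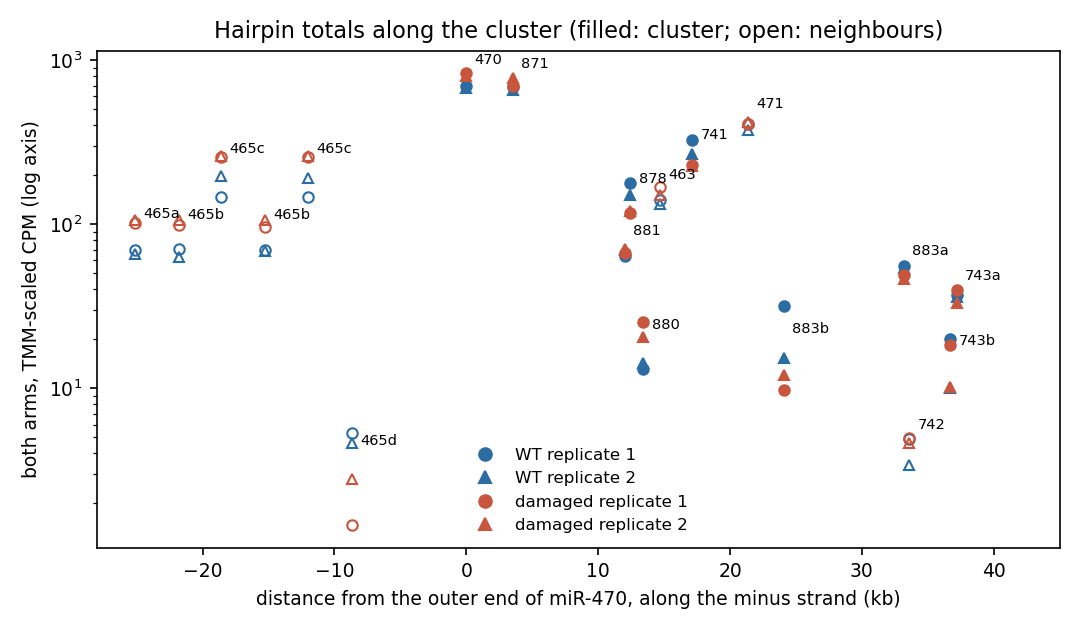
Hairpin totals (both arms, TMM-scaled CPM, log axis) against the distance in kb from the outer end of miR-470 along the minus strand, with filled symbols for the 10 member hairpins and open ones for neighbours of the same family. The highest members, miR-470 and miR-871, lie side by side at 0 and 3.52 kb, and the 4 members from 24.1 kb on have means of 14.6 to 51.3 CPM.

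Each hairpin had its own arm preference. The 5p arm held most counts in all 4 libraries for 6 hairpins (miR-470, miR-871, miR-878, miR-883a, miR-883b and miR-743a) and the 3p arm for 2 (miR-741 and miR-880), while miR-881 and miR-743b changed between libraries. The extremes were miR-470, with 0.0527% to 0.222% of its counts on the 3p arm, and miR-880, with 100% in every library (exact 95% lower bounds 93.9% to 97.9%). Over the whole cluster the 5p share was 79.1% ± 0.0145 for WT and 79.0% ± 1.28 for damaged (SD, n = 2).

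Beside those similar totals, the arms of single hairpins stood in different proportions in the groups. miR-881 had the widest difference. Its 3p arm held 115 of 287 counts in WT replicate 1, or 40.1% (exact 95% interval 34.4 to 46.0), and 49.4% (45.1 to 53.8) in WT replicate 2. In damaged replicates 1 and 2 it held 74.6% (70.3 to 78.5) and 64.8% (60.6 to 68.9). The groups did not overlap, and their means were 44.8% ± 6.62 and 69.7% ± 6.87 (SD, n = 2). With any 1 library left out the difference was 20.1 to 29.8 percentage points.

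Both arms of miR-881 contributed to that difference, in opposite directions, while the hairpin total was 66.7 ± 4.46 CPM for WT and 68.9 ± 2.58 CPM for damaged (SD, n = 2). miR-881-3p had 115 and 263 counts in WT and 343 and 345 in damaged, or 25.5, 34.5, 50.04 and 45.9 CPM in that order, so that both damaged libraries lay above. miR-881-5p had 172 and 269 counts in WT and 117 and 187 in damaged, or 38.1, 35.3, 17.1 and 24.9 CPM, so that both lay below. Their log2 fold changes were 0.67 ± 0.26 and -0.81 ± 0.29 (SE). That of miR-881-3p was 0.39 without WT replicate 1 and 0.94 without WT replicate 2. The sequences above show that the 2 arms carry different seeds, ACUGUGU and AGAGAGA.

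miR-871 followed, with the 3p arm as the minor strand. miR-871-3p had 190 and 534 counts in WT and 915 and 890 in damaged, or 42.1, 70.1, 133 and 118 CPM in that order. Both damaged libraries lay above both WT libraries, but the WT libraries themselves differed by more than the damaged ones. Its share of the hairpin was 6.10% and 10.6% (exact 95% interval of the latter 9.77 to 11.5) in WT and 19.3% (18.2 to 20.4) and 15.1% (14.2 to 16.1) in damaged. The log2 fold change of miR-871-3p, 1.16 ± 0.29 (SE), was the highest of the cluster, from 56.1 ± 19.8 to 126 ± 10.7 CPM (SD, n = 2), and was 0.77 without WT replicate 1 and 1.61 without WT replicate 2. The entries thought to derive from other RNA classes summed to 6576 ± 226 CPM in the damaged libraries against 2315 ± 687 in WT (SD, n = 2), and their part in the miR-871-3p difference was not tested.

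miR-741 and miR-878, both with a strongly preferred arm, differed on a smaller scale. For miR-741 the minor 5p strand had 43 and 79 counts in WT and 124 and 121 in damaged, or 9.52, 10.4, 18.1 and 16.1 CPM in that order. The 3p share was 97.1% and 96.1% in WT and 92.1% and 92.9% in damaged, with no overlap. For miR-878 the major 5p strand stood at 169 and 146 CPM in WT and 106 and 112 in damaged, also without overlap (log2 fold change -0.53 ± 0.17, SE). Its minor 3p strand had 10.2 and 3.28 CPM in WT and 10.6 and 9.18 in damaged, and its log2 fold change of 0.58 ± 0.63 (SE) was -0.01 without WT replicate 2 and 1.51 without WT replicate 1. The 3p share of miR-878 was 5.70% and 2.19% in WT and 9.16% and 7.58% in damaged, 4.42 percentage points apart by mean and 2.67 without WT replicate 2.

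The other hairpins gave no separation by arm or rest on few counts. The 3p share of miR-743a was 26.6% ± 5.41 in WT and 24.3% ± 0.846 in damaged, and that of miR-883a 15.6% ± 4.62 and 12.3% ± 3.17 (SD, n = 2). For miR-743b it ran from 40.8% to 67.1% over the 4 libraries, with WT replicate 2 and damaged replicate 2 near each other at 67.1% and 65.8%. The difference in the 3p share of miR-883b, -6.94 percentage points for damaged minus WT, was 1.49 without WT replicate 1. In miR-470 the 3p share was so small (3 to 8 counts a library) that the exact 95% intervals of the 4 libraries all overlap.

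Set beside the table as a whole, 188 hairpins had both arms as single rows and at least 100 counts in each library. In 18.6% of these both damaged libraries lay above both WT libraries in 3p share, and in 18.1% below. Of the 7 cluster hairpins among them, 3 lay above (miR-871, miR-878 and miR-881) and 2 below (miR-741 and miR-470). Group means at least 5 percentage points apart, a limit chosen after the values were seen, occurred in 12.8% of the 188 and in 2 of the 7, miR-871 and miR-881. The members were chosen with these values known, so nothing particular to the cluster is read from these counts. The design also sets a limit, since permuting 2 against 2 labels exactly (two-sided) gives no p below 0.33.

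**Figure D3:**
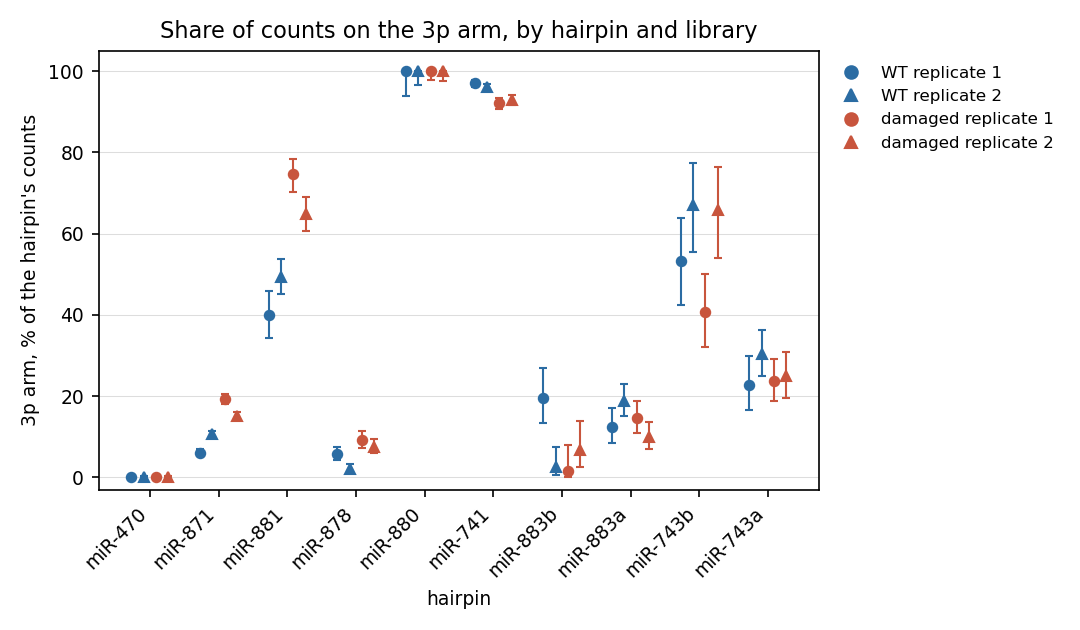
Percentage of each hairpin's counts on its 3p arm, by library, with exact 95% binomial intervals; WT in blue, damaged in red, circles for replicate 1 and triangles for replicate 2. Hairpins run in the order of the minus strand, and the groups stand farthest apart in miR-881, at 40.1% and 49.4% in WT against 74.6% and 64.8% in damaged.

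Across rows, 17 of the 20 passed the filter on low counts, and edgeR's quasi-likelihood test over 536 rows called 0 of them at an adjusted p of 0.05, where 9.51% of all tested rows were called (4.1% higher and 5.41% lower). At an unadjusted p under 0.05 there were 5, against 30.8% of all rows. DESeq2 called 1 (20.3% of all rows) and limma-voom 1 (14.7%), miR-871-3p in both. Both damaged libraries lay above both WT libraries in 5 of the 17 and below in 5, where the shares over all tested rows were 29.1% and 30.8%. The median log2 fold change was -0.02 for the 17 and 0.02 for all rows, and 10 of the 17 lay within the middle 50% of all rows, -0.68 to 0.58. Nothing is read from these counts, since the members were picked with this comparison known.

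Among the lower rows in damaged by mean, miR-883b-5p had 25.7 and 14.8 CPM in WT and 9.63 and 11.2 in damaged. Its groups did not overlap, but its log2 fold change of -0.95 ± 0.39 (SE) was -0.59 without WT replicate 1. miR-883a-5p, the most abundant strand at the miR-743a end, had 48.7, 44.0, 42.0 and 41.6 CPM in WT replicates 1 and 2 and damaged replicates 1 and 2, a log2 fold change of -0.15 ± 0.21. miR-880-3p, the sole strand counted from its hairpin, had 59 and 109 counts in WT and 173 and 154 in damaged, or 13.1, 14.3, 25.2 and 20.5 CPM. Its damaged libraries lay above, with a log2 fold change of 0.74 ± 0.30 (SE). The other 5 tested rows, both arms of miR-743b, miR-743a-3p, miR-743a-5p and miR-883a-3p, overlapped between groups, as did the rarely counted miR-883b-3p and miR-470-3p.

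**Figure D4:**
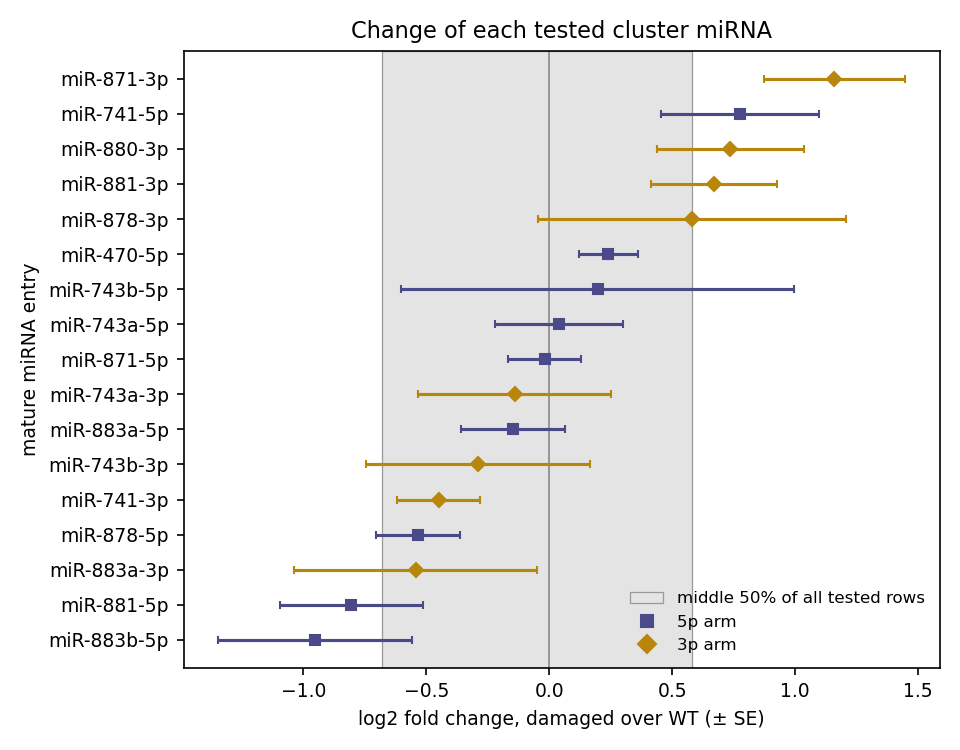
Log2 fold change of damaged over WT with its SE for the 17 tested cluster rows, squares for 5p and diamonds for 3p arms; the grey band holds the middle 50% of all 536 tested rows, -0.68 to 0.58. The rows run from miR-883b-5p at -0.95 to miR-871-3p at 1.16, with miR-470-5p and miR-871-5p, the most abundant, at 0.24 and -0.02.

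The nearest relatives outside the 10 hairpins were compared through a list of other X-linked miR-506-type miRNAs, miR-201, miR-463, miR-465a to miR-465d, miR-471, miR-509, miR-547 and miR-742. Of its 24 rows, 20 had counts and 17 were tested. edgeR called 0 of 17, where 9.51% of all tested rows were called. At an unadjusted p under 0.05 there were 7 (30.8% of all rows), and DESeq2 and limma-voom called 0 (20.3% and 14.7% of all rows), and the median log2 fold change was 0.25 against 0.02 for all rows. Both damaged libraries lay above both WT libraries in 10, of which 7 were rows of miR-465, where the share over all tested rows was 29.1%. Nothing particular to these relatives is read from that count, since the list was written with earlier results known. Reads of identical copies, as of miR-465c, cannot be assigned to a locus. The hairpins of miR-465b had nearly equal WT means of 66.9 and 69.2 CPM, and that of miR-465a 68.0 CPM. The 7 rows of miR-465 are therefore not taken as separate results. The most abundant rows were miR-471-3p at 280 ± 4.19 and 319 ± 0.0163 CPM, miR-463-5p at 134 ± 3.79 and 160 ± 13.0 CPM, and miR-465c-5p (copy 1) at 104 ± 28.7 and 157 ± 1.51 CPM (WT and damaged, SD, n = 2). In sum the list held a WT mean of 1100 ± 30.6 CPM and a damaged mean of 1418 ± 22.1 CPM (SD, n = 2), a ratio of 1.29, against 1.03 for the cluster.

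Of the germline and testis-linked miRNAs on other chromosomes, 1 of 6 tested rows was called higher in damaged by edgeR (4 at an unadjusted p under 0.05, 4 by DESeq2 and 2 by limma-voom, beside shares over all rows of 9.51%, 30.8%, 20.3% and 14.7%), miR-34b-3p, a p53-responsive miRNA. Its WT mean was 219 ± 3.89 CPM and its damaged mean 1807 ± 321 CPM, beside miR-34c-3p at 723 ± 6.05 and 1300 ± 350 CPM and miR-34c-5p at 36.1 ± 0.0124 and 56.1 ± 19.9 CPM (SD, n = 2).

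The rows outside the cluster whose pattern over the 4 libraries was most like that of miR-470-5p were miR-103-3p (the copy on chromosome 2), miR-463-5p, miR-324-3p, miR-471-3p and miR-28a-5p. Likeness was the root mean square difference of log2 CPM after each row's mean was taken away. It was 0.026 to 0.044 for these 5 and 0.506 at the median of all 536 tested rows. miR-463-5p and miR-471-3p lie between members of the cluster on the same strand. Within the cluster the closest were miR-743a-5p at 0.137, which was 38th of the 536 tested rows counting miR-470-5p itself as the first, and miR-871-5p at 0.175. With 4 libraries this describes these values only.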

How the data were processed

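Small RNA of C2C12 vesicles was counted in 2 WT and 2 damaged libraries. The deposited values are raw counts per mature miRNA entry: per the file headers, featureCounts 2.0.1 counted features of type miRNA, with no strand, multi-mapping or multi-overlap option, while BWA, FastQC and mm10 are named in the submitters' processing notes. Not given in the sources used here: trimming, BWA version, miRBase release.

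Rows were named by exact position in RefSeq mature entries (1734 rows), else by their GENCODE vM21 hairpin (364), and 12 stayed unnamed. The members and lists were chosen with earlier results of these data known. edgeR 4.0.16 (R 4.3.3) was run with TMM scaling, filterByExpr (minimum count 10), no term but group, and Benjamini-Hochberg adjustment across the 536 rows tested, with DESeq2 1.42.0 and limma 3.58.1 voom as alternatives. The edgeR fit was also run on simulated data with log2 changes larger than any in the cluster, and it missed some of them. That run does not show that changes of the size seen in the cluster would be called. Each SE was derived from the F statistic. CPM are TMM-scaled, and shares are not. A count of 0 allows up to 3 counts a library. No molecular identifiers are named, so intervals cover counting error only. Cluster rows with at least 10 counts were named, with full values for the 3 of highest mean CPM, and further strands were described in full after their values were seen. Lists outside the cluster were X-linked relatives, germline, muscle, blood and liver, neural and likely fragments. Abundant rows were named for each list but the likely fragments, which were given as sums and counts only. Other settings were RLE, upper quartile and library-total scaling, other filters, a GC correction, identical sequences summed, a replicate block and each library left out.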

Additional observations from a re-analysis of the deposited data

How the results depend on the processing

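The count of called rows depended on the settings. In place of 51 of 536 tested rows, edgeR called 77 of 536 with upper quartile scaling. It called 131 of 1001 with no filter and 91 of 318 with at least 10 CPM in 2 libraries. DESeq2 called 109 of 536 and limma-voom 79 of 536. The replicate block called 127 of 536 rows, and 124 of 536 with the GC correction as well. With edgeR, leaving out 1 library gave 0 to 30 rows: 30 without damaged replicate 2, and 0 without any one of the others (unadjusted p under 0.05 in 103, 124 and 144 rows without WT replicate 1, WT replicate 2 and damaged replicate 1). In the cluster, miR-871-3p alone was called under 6 settings on 4 libraries, in place of 0 rows. It was 1 of 19 tested members with no filter and 1 of 13 with the stricter filter. It was 1 of 17 with DESeq2, limma-voom, the replicate block, and the block with the GC correction. The count was 0 in the other settings on 4 libraries. The labels do not say whether equal numbers mark a shared culture or day, so the main fit had no block. Deviations of equal numbers were almost uncorrelated between groups (0.0111). With 2 libraries per group that value cannot settle whether such a pairing exists. The ratio of cluster totals lay between 0.988 and 1.05 under the other scalings and with 1 library left out. Of the 17 tested rows, 12 kept the sign of their log2 fold change in every setting that gave them a value, and miR-743a-3p, miR-743a-5p, miR-743b-5p, miR-871-5p and miR-878-3p did not. With 1 library left out, miR-743b-5p ran from -0.84 to 1.03, miR-878-3p from -0.01 to 1.51, miR-871-3p from 0.77 to 1.61 and miR-883b-5p from -1.27 to -0.59. Only miR-470-5p moved by more than the spread between its replicates, which was narrow. Its 0.24 became 0.18 with upper quartile scaling, without WT replicate 1 and without damaged replicate 1. The difference in 3p share of miR-881 was 20.1 to 29.8 percentage points with 1 library left out, that of miR-871 6.60 to 11.1 and that of miR-883b -15.4 to 1.49, reversed without WT replicate 1. Those of miR-743a and miR-743b also turned sign, without WT replicate 2 and damaged replicate 1. Sequences were known for 82.8% of tested rows in the GC correction. Depth limits miR-470-3p, with under 10 counts in every library, and miR-883b-3p, with under 10 in 3 of 4.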
